A study of Mus musculus with 20 samples.

Results

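The enteroendocrine genes are a set of 10 genes that mark the hormone-secreting cells of the gut epithelium: Gcg, Pyy, Insl5, Sct, Cck, Tph1, Chga, Chgb, Scg2, and Neurod1. They were chosen by name and looked up by Ensembl identifier in a count table of 12701 genes from the proximal colon (PC) of C57BL/6 mice, in which 8 of the 10 were found. Cck and Neurod1 were not analysed here. The mice began the Total Western Diet (TWD), which copies the nutrient profile of a typical American diet, at 3 weeks of age and ate it for 6 weeks, and subgroups then ate the TWD alone (0% RPS) or the TWD with raw potato starch (RPS) added to 2, 5, or 10% for 3 more weeks. RPS is a resistant starch: it escapes the host's own amylases and feeds microbes of the large bowel. Each of the 4 diets had 5 libraries, and all of the mice, the 0% RPS group included, carried the same strain background and the same Western base diet. The libraries held 20581013 to 35083751 counts, with a median of 26354926. The detection floor of 3 counts stood at 0.0855 CPM (counts scaled to the library total) in the deepest and 0.146 CPM in the shallowest library, which covers counting error only.

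Enteroendocrine cells are rare, scattered cells that sense the gut contents and release peptides or serotonin. L cells, which are frequent in the colon, process the product of Gcg to glucagon-like peptides and also make peptide YY (Pyy) and, in the colon, insulin-like peptide 5 (Insl5), whereas enterochromaffin cells use tryptophan hydroxylase (Tph1) for the first step of serotonin synthesis. The granins Chga, Chgb, and Scg2 are acidic proteins of the secretory granule and are shared by endocrine cells and neurons. The tissue was a whole segment of the gut wall, so fewer cells of a type and less RNA per cell cannot be told apart.

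The epithelial list, from Epcam to Elf3, had 12 of 12 genes measured and a summed level of 12930 to 17840 CPM. Smooth muscle (8 of 8 genes, 4466 to 11260 CPM) and enteric neuron genes (18 of 21, 339.9 to 602.6 CPM) were present in every library, as were enteric glia genes (4 of 4, 36.09 to 52.4 CPM). Among mast cell and pancreas genes, which could bring their own Tph1 or hormone transcripts, only Kit of 9 and Cela1 of 9 were measured. Replicate 2 of the 0% RPS diet stood apart from the other libraries. Its posterior Hox genes, which mark distance along the gut, summed to 289.3 CPM, whereas the other 19 libraries ranged from 60.02 to 123.9 CPM. Most of this sum came from Hoxa7, Hoxa9, Hoxa10, and Hoxa13, at 61.61, 92.16, 71.76, and 38.95 CPM. Little of it is left for Hoxa11, Hoxd9, and Hoxd10, so the sum does not show that all 7 genes were high. The smooth muscle list of this library was the highest at 11260 CPM (4466 to 9763 in the others) and its Cela1 reached 87.65 CPM (35.56 to 51.15 in the others). For this reason the values at 10% RPS against 0% RPS are also given without this library for all 8 genes. In addition, none of the 40 pairs of libraries within a diet agreed within counting noise (lowest chi-square per degree of freedom 13.6). The labels give every library its own number and the libraries were taken as separate mice, so p-values measure the spread between these samples.

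Expression per transcript length ranked the genes in the following order. Pyy stood at 63.9 ± 14.95 RPKM (SD, n = 20; counts scaled to the library total and to the length of the canonical GENCODE transcript in kilobases), Chga at 53.5 ± 12.1, Sct at 51.7 ± 10.2, Gcg at 40.1 ± 8.91, Chgb at 37.98 ± 9.735, Scg2 at 17.7 ± 3.42, Tph1 at 6.08 ± 1.76, and Insl5 at 3.97 ± 5.01 RPKM. Neighbours at the top of this order were not separated: Pyy was above Chga in 14 of 20 libraries, Chga above Sct in 10 of 20, and Gcg above Chgb in 9 of 20. Sct was above Gcg in 18 of 20, Chgb above Scg2 in 19 of 20, Scg2 above Tph1 in 20 of 20, and Tph1 above Insl5 in 18 of 20. The SD of Insl5 exceeded its mean because of the library named above. Without it, the coefficient of variation of the normalised Insl5 count over the remaining 19 libraries was 22.8%, within the 16.2 to 31% of the other 7 genes. The summed level of the 8 genes was 430.3 ± 49.6 CPM at 0% RPS, 402 ± 88.7 at 2%, 414 ± 48.8 at 5%, and 441 ± 82.2 at 10% RPS (SD, n = 5 each), so the means of the diets lay within 1 SD of each other.

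Each RPS level was then compared with the TWD alone to see which hormone genes it altered. A gene counted as changed at a DESeq2 adjusted p of 0.05 or less, over all genes, and a fold change of 1.5 or more. At 2% RPS, 0 of the 8 genes were changed (1 higher and 1 lower at an unadjusted p under 0.05), where 0.0239% of all genes tested were. At 5% RPS, 0 of the 8 were changed (1 lower at an unadjusted p under 0.05; 0.438% of all genes). At 10% RPS, 1 of the 8 was changed, Insl5, which was lower (0.917% of all genes), and this call depended on replicate 2 of the 0% RPS diet. At 10% RPS 1 gene was higher and 2 were lower at an unadjusted p under 0.05, which 2365 of all 12561 genes reached in either direction (1093 at 2% and 2087 at 5% RPS). edgeR called 0 of the 8 genes at each level, and at 10% RPS it called 0.323% of all genes. The median log2 fold change of the 8 genes was -0.09 at 2%, -0.04 at 5%, and 0.05 at 10% RPS, beside medians of -0.01, -0.01, and 0.00 over all genes tested. The 3 comparisons share the 0% RPS libraries.

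**Figure D1:**
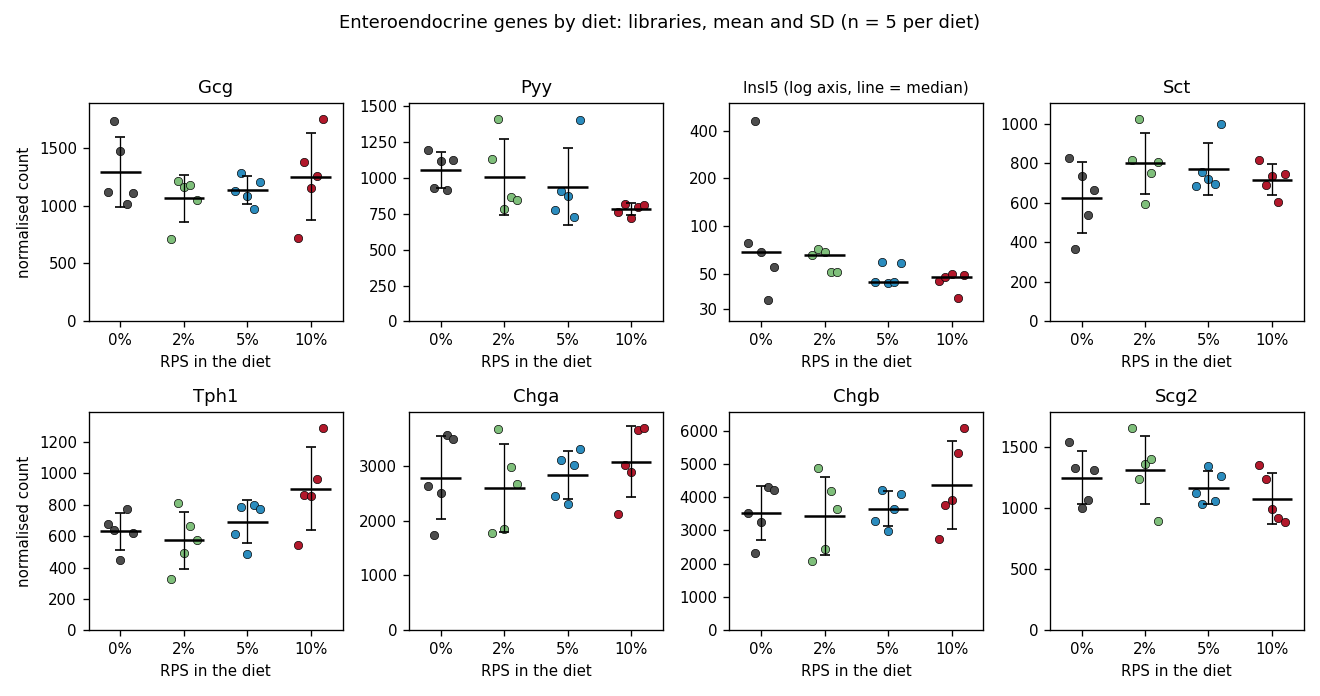
Normalised counts (vertical axis) of the 8 measured enteroendocrine genes by RPS level (horizontal axis). Points are libraries, 5 per diet, with the mean and SD, except for Insl5, which has a logarithmic axis and the median. The single Insl5 library at 458.2 is replicate 2 of the 0% RPS diet, and the 10% RPS libraries for Pyy (719.6 to 816.1) lie below all 0% RPS libraries (919.1 to 1195).

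Gcg (ENSMUSG00000000394, chromosome 2: 62304873 to 62313997, minus strand, GRCm39), the proglucagon gene, did not pass at any RPS level. Its normalised counts were 1119, 1729, 1472, 1016, and 1110 at 0% RPS, and 715.7, 1378, 1150, 1252, and 1748 at 10% RPS. The 2 diets overlapped widely. At 2% RPS the counts were 707.9, 1215, 1161, 1174, and 1045, and at 5% RPS 1128, 1284, 1078, 972.3, and 1201. The log2 fold change against 0% RPS was -0.28 ± 0.19 (SE) at 2%, -0.19 ± 0.19 at 5%, and -0.05 ± 0.19 at 10% RPS, with adjusted p values of 0.681, 0.652, and 0.92. The 95% interval at 10% RPS reached from -0.42 to 0.33 on the log2 scale, and a 1.5-fold change in either direction lay outside it. The sign at 10% RPS turned to 0.08 without replicate 2 of the 0% RPS diet.

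Pyy (ENSMUSG00000017311, chromosome 11: 101997502 to 101998658, minus strand) encodes the peptide that slows gut transit and reduces food intake. Its normalised counts were 1195, 933, 1118, 919.1, and 1127 at 0% RPS and 761.6, 816.1, 719.6, 798.4, and 812.8 at 10% RPS. Every library at 10% RPS lay below every library at 0% RPS, as was the case in either direction for 2.51% of all genes. At 2% RPS the counts were 1131, 1413, 781.6, 868.7, and 844.5, and at 5% RPS 778, 913.1, 876.2, 731.1, and 1405. These 2 diets overlapped with both of the others. The coefficient of variation was 5.23% at 10% RPS and 11.8 to 28.7% in the other diets. The log2 fold change at 10% RPS was -0.44 ± 0.17 (95% interval -0.77 to -0.11), which did not pass after adjustment (unadjusted p = 0.00934, adjusted p = 0.111, edgeR adjusted p = 0.167) and was below 1.5-fold. At 2% RPS it was -0.07 (adjusted p = 0.931) and at 5% RPS -0.17 (adjusted p = 0.631). The 10% RPS difference was -0.48 without replicate 2 of the 0% RPS diet (adjusted p = 0.0718). It passed both criteria with the epithelial score as a covariate (-0.65, adjusted p = 0.0365), and in a fit of the 0 and 10% RPS libraries alone it passed on the adjusted p (0.00121) but not on the fold (-0.44). Over all alternatives for this difference, adjusted p lay between 0.00121 and 0.271. The 12 epithelial genes were all on the higher side at 10% RPS, 0 of them changed, with a median log2 fold change of 0.13.

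Insl5 (ENSMUSG00000066090, chromosome 4: 102875069 to 102884039, minus strand) encodes a relaxin-family peptide of colonic L cells. Its normalised counts were 77.89, 458.2, 68.18, 34.25, and 54.95 at 0% RPS, the second being a raw count of 440. At 2% RPS they were 65.65, 71.05, 68.83, 51.35, and 51.28, at 5% RPS 44.19, 59.13, 43.76, 44.01, and 58.77, and at 10% RPS 44.86, 47.76, 49.99, 34.88, and 49.29. The 10% RPS libraries lay within the range of the 0% RPS libraries, and the 458.2 of replicate 2 was the one value outside 34.25 to 77.89. The log2 fold change was -1.17 at 2% (adjusted p = 0.466), -1.47 at 5% (adjusted p = 0.071), and -1.61 ± 0.48 at 10% RPS (adjusted p = 0.0258, edgeR adjusted p = 0.107). When replicate 2 of the 0% RPS diet was left out, the same differences were 0.08, -0.23, and -0.36 ± 0.23, with adjusted p values of 0.942, 0.62, and 0.343, and 0 of the 8 genes were changed at 10% RPS, where 1.63% of all genes were. The call at 10% RPS was also lost when replicate 3, 4, or 5 of the 10% RPS diet was left out, and over all fits with 1 library left out adjusted p lay between 0.0109 and 0.343. With the score of the posterior Hox genes as a covariate the 10% RPS difference was -0.19 (adjusted p = 0.872). In replicate 2, Hoxa9 stood at 2422 normalised counts and Hoxa13 at 1024, whereas the other 19 libraries did not exceed 678.4 and 198. The posterior Hox list had 8 measured genes, which were 7 Hox genes and Osr2. Of these, 2 were lower at 10% RPS, Hoxa7 and Hoxa9, but 0 were called by edgeR or without replicate 2. The score and the summed level were taken over the 7 Hox genes, without Osr2. This summed level ran from 73.63 to 289.3 CPM at 0% RPS, the highest being replicate 2, and from 60.02 to 70.35 CPM at 10% RPS. Of 5 measured genes on the list of small-intestinal enterocytes, 2 were lower at 10% RPS (Apoa1 and Slc15a1), 1 by edgeR, and 3 without replicate 2. Their summed level was 142.7 ± 70.5 CPM at 0%, 250.5 ± 98.5 at 2%, 187.1 ± 65.2 at 5%, and 113.6 ± 46.8 CPM at 10% RPS (SD, n = 5), and replicate 2 was the lowest library at 42.32 CPM (44.34 to 345.1 in the others). Fabp6 was the most abundant of the 5 per length at 230.9 RPKM, whereas Slc15a1 stood at 2.03 and Apoa1 at 0.842. The sum therefore says little about these 2 genes. At 2% RPS, where the sum was highest, 4 of the 5 genes had a negative log2 fold change (median -0.81). The part of position along the gut in the Insl5 difference was not tested beyond the covariate. Between 2 and 10% RPS, where replicate 2 takes no part in the libraries compared, the Insl5 libraries did not overlap (1.76% of all genes), with a log2 fold change of -0.44 (adjusted p = 0.84, and 0.456 in the fit without replicate 2 of the 0% RPS diet).

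**Figure D2:**
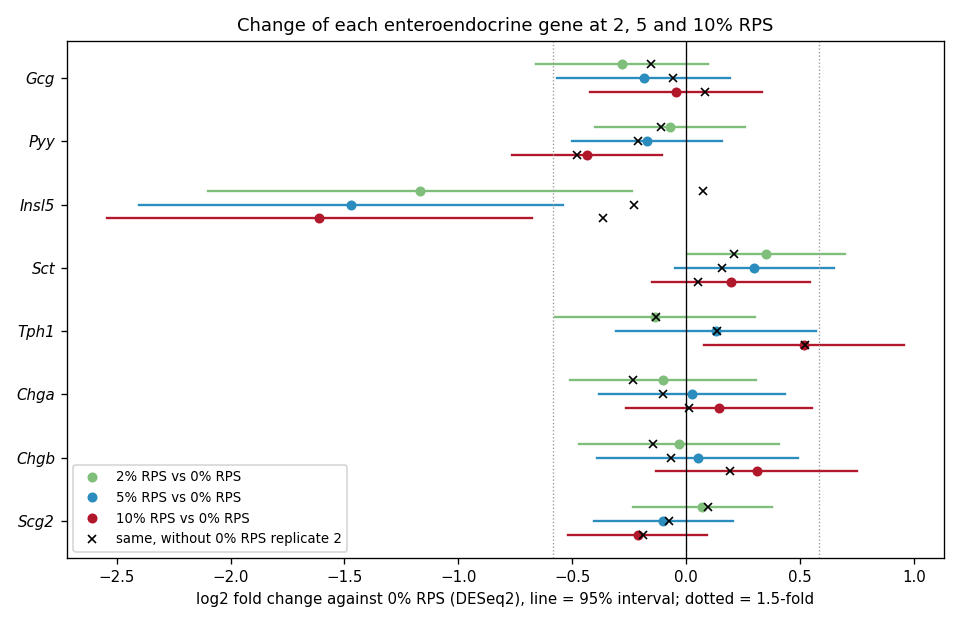
Log2 fold change of each gene against 0% RPS (horizontal axis) at 2, 5, and 10% RPS, as the DESeq2 estimate (point) with its 95% interval (line). Crosses are the same estimates without replicate 2 of the 0% RPS diet, and dotted lines mark a 1.5-fold change. Insl5 moves from -1.61 to -0.36 at 10% RPS when that library is left out, whereas Pyy (-0.44 and -0.48) and Tph1 (0.52 and 0.52) hardly move.

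Sct (ENSMUSG00000038580, chromosome 7: 140858243 to 140859052, minus strand) encodes secretin, which stimulates bicarbonate secretion. Its normalised counts were 826.1, 364.5, 738.2, 540, and 663.5 at 0% RPS and 815.9, 688.8, 734.7, 605.6, and 744.2 at 10% RPS. The lowest value of all 20 libraries was that of replicate 2 at 0% RPS. The largest difference was at 2% RPS, where the counts were 818.4, 1025, 596.1, 751, and 805.8 and the log2 fold change was 0.35 ± 0.18 (unadjusted p = 0.0476, adjusted p = 0.568). At 5% RPS the counts were 686.5, 756.1, 718.1, 696.8, and 1000. The log2 fold change at 5 and 10% RPS was 0.30 and 0.20 (adjusted p = 0.384 and 0.563). Leaving out replicate 2 of the 0% RPS diet, the 3 values were 0.21, 0.16, and 0.05.

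Tph1 (ENSMUSG00000040046, chromosome 7: 46294065 to 46321965, minus strand), the enzyme of enterochromaffin serotonin synthesis, had its highest counts at 10% RPS. They were 545.7, 865.6, 853.3, 964.1, and 1292 at 10% RPS and 674.7, 638.3, 448.2, 775.7, and 621 at 0% RPS. Of the 5 libraries at 10% RPS, 4 exceeded the highest 0% RPS library and the fifth lay within the 0% RPS range. At 2% RPS the counts were 326, 811.9, 492.3, 665.4, and 577.7, and at 5% RPS 617.2, 787.1, 484.3, 797.9, and 772.4. The log2 fold change at 10% RPS was 0.52 ± 0.22 (95% interval 0.08 to 0.96; unadjusted p = 0.0207, adjusted p = 0.167), and it did not pass. Its values under the alternatives ran from 0.26 to 0.65 and adjusted p from 0.0521 to 0.666. The lowest of them came without 3 libraries that carry label numbers apart from those of the other 17, namely replicate 5 of the 2% RPS diet and replicates 4 and 5 of the 10% RPS diet, the latter being the 2 highest for Tph1 at 964.1 and 1292. Against 2% RPS the 10% RPS value was 0.65 ± 0.22 (unadjusted p = 0.0035, adjusted p = 0.237), which did not pass either. Of the 50-base windows in Tph1 transcripts, 0.093% occur in transcripts of another gene, so that few reads could be shared.

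Chga (ENSMUSG00000021194, chromosome 12: 102520484 to 102531300, plus strand) and Chgb (ENSMUSG00000027350, chromosome 2: 132622464 to 132637904, plus strand) encode chromogranins A and B. The normalised counts of Chga were 2630, 1734, 2503, 3566, and 3487 at 0% RPS, 1776, 3675, 1854, 2983, and 2676 at 2%, 2456, 3103, 2301, 3013, and 3304 at 5%, and 2120, 3022, 2891, 3646, and 3696 at 10% RPS. Those of Chgb were 3517, 2336, 3249, 4293, and 4224 at 0% RPS, 2071, 4887, 2458, 4174, and 3649 at 2%, 3299, 4227, 2994, 3636, and 4099 at 5%, and 2750, 3754, 3927, 5328, and 6090 at 10% RPS. The libraries that were low for Chga were low for Chgb as well. The ranges of all 4 diets overlapped for both genes. At 10% RPS the log2 fold change was 0.14 ± 0.21 for Chga (95% interval -0.26 to 0.55, adjusted p = 0.743) and 0.31 ± 0.22 for Chgb (-0.13 to 0.75, adjusted p = 0.453). When replicate 2 of the 0% RPS diet was left out, these values were 0.01 and 0.19. Both signs turned without the 3 libraries numbered apart (-0.057 and -0.020), of which the pair at 10% RPS held the highest Chgb counts of that diet (5328 and 6090), and with the position covariate (-0.20 and -0.072). At 2 and 5% RPS the differences were -0.10 and 0.03 for Chga and -0.03 and 0.05 for Chgb, with adjusted p from 0.919 to 0.976, and the sign of the 5% RPS values turned without that library (-0.10 and -0.066). A second gene, Gm74864, overlaps Chgb on the other strand. Since the strand setting of the authors' counting is not given in the sources used here, reads of that overlap cannot be told apart.

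Scg2 (ENSMUSG00000050711, chromosome 1: 79412386 to 79417837, minus strand), secretogranin II, is the precursor of secretoneurin and is made by neurons as well as endocrine cells. Its counts were 1540, 1328, 998.2, 1067, and 1313 at 0% RPS and 1352, 1238, 996.2, 917.6, and 885.3 at 10% RPS. At 2% RPS they were 1658, 1238, 1360, 1404, and 895.8, and at 5% RPS 1123, 1036, 1345, 1059, and 1266. The ranges of the 4 diets overlapped. Log2 fold changes were 0.07 at 2%, -0.10 at 5%, and -0.21 ± 0.16 at 10% RPS, with adjusted p values of 0.925, 0.779, and 0.463, and at 10% RPS it was -0.19 without replicate 2 of the 0% RPS diet. Of the enteric neuron genes 0 of 18 were changed at 10% RPS, 15 had a negative log2 fold change, and the median was -0.19. Of the enteric glia genes 1 of 4 was changed, Gfap, which was higher (0.61, adjusted p = 0.00797, edgeR adjusted p = 0.0569). The other 3 glia genes had negative values, 1 of them at an unadjusted DESeq2 p under 0.05, and the median of the list was -0.18. Of the smooth muscle genes 0 of 8 were changed. Kit and Cela1 were not changed, but with 1 gene measured of each list, neither mast cells nor pancreas can be judged. The summed level of the enteric neuron genes was 463 ± 65.9 CPM at 0% RPS and 391 ± 56.6 CPM at 10% RPS (SD, n = 5).

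The next comparisons were among the 3 starch diets. Between 2 and 5% RPS 0 of the 8 genes were changed (0% of all genes), and 0 at an unadjusted p under 0.05. Between 2 and 10% RPS 0 were changed (0.0557% of all genes), with Tph1 higher and Pyy lower at an unadjusted p under 0.05, beside 1131 of all 12561 genes. Between 5 and 10% RPS 0 were changed (0.00796% of all genes), and 0 at an unadjusted p under 0.05. edgeR called 0 of the 8 in each of these comparisons. A trend was then fitted over the RPS percentage, here with no threshold on fold. By this test 0 of the 8 genes had a slope, where 4.29% of all genes did. At an unadjusted p under 0.05 there were 1 higher and 2 lower, beside 2397 of all 12545 genes tested. edgeR gave 0 of the 8 and 1.33% of all genes. The slopes closest to the threshold were Insl5 at -0.14 ± 0.05 log2 units per percent RPS (adjusted p = 0.0557), Pyy at -0.04 ± 0.02 (adjusted p = 0.0698), and Tph1 at 0.06 ± 0.02 (adjusted p = 0.0757). Without replicate 2 of the 0% RPS diet, 1 of the 8 passed, Pyy with a slope of -0.05 (adjusted p = 0.0438), where 6.43% of all genes passed. The slope of Insl5 then was -0.04 (adjusted p = 0.185).

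The genes were next compared with each other across mice. Over 20 libraries, 28 pairs were correlated on log2(normalised count + 1). Chga and Chgb were the most alike, with Pearson r = 0.96 and Spearman rho = 0.97 (permutation p = 1e-05 for each, the smallest that 100000 permutations can give, adjusted 0.00014 and 0.00028). Without the 2 libraries farthest from the median of Chga, r was 0.94, and with values centred within each diet it was 0.96. Tph1 followed them, with r = 0.84 and rho = 0.78 for Chgb (permutation p = 1e-05 and 8.00e-05, adjusted 0.00014 and 0.00112) and r = 0.77 and rho = 0.78 for Chga (permutation p = 5.00e-05 and 0.00012, adjusted 0.000467 and 0.00112). With 2 libraries left out in the same way these were 0.71 and 0.78, and centred within diets 0.83 and 0.77. Among the hormones of L cells no pair passed after adjustment over the 20 libraries. Gcg and Pyy had r = 0.04 and rho = 0.13 (permutation p = 0.875 and 0.588, adjusted 0.907 and 0.688; r = 0.06 with 2 libraries left out). Gcg and Insl5 had r = 0.41 and rho = 0.33 (permutation p = 0.108 and 0.158, adjusted 0.202 and 0.294), and r was 0.09 without replicate 2 of the 0% RPS diet. Pyy and Insl5 had r = 0.26 and rho = 0.58 (permutation p = 0.263 and 0.00759, adjusted 0.35 and 0.0531), with r = 0.30 when the 2 libraries farthest from the median of Pyy were left out, r = 0.62 without replicate 2 of the 0% RPS diet, and r = 0.04 centred within diets. Scg2 had negative values with the other granins. For Chgb r was -0.61 and rho -0.57 (permutation p = 0.00417 and 0.0109, adjusted 0.0292 and 0.0612), which passed on r alone and fell to r = -0.40 with 2 libraries left out. For Chga r was -0.53 and rho -0.55 (permutation p = 0.0169 and 0.0142, adjusted 0.0591 and 0.0664), which did not pass. Tph1 and Scg2 also passed on r alone (r = -0.57, rho = -0.52, permutation p = 0.00762 and 0.0189, adjusted 0.0427 and 0.0757; r = -0.29 with 2 libraries left out). So did Chga and Insl5 (r = -0.52, rho = -0.29, permutation p = 0.00924 and 0.215, adjusted 0.0431 and 0.344), with r = -0.31 without replicate 2 of the 0% RPS diet.

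**Figure D3:**
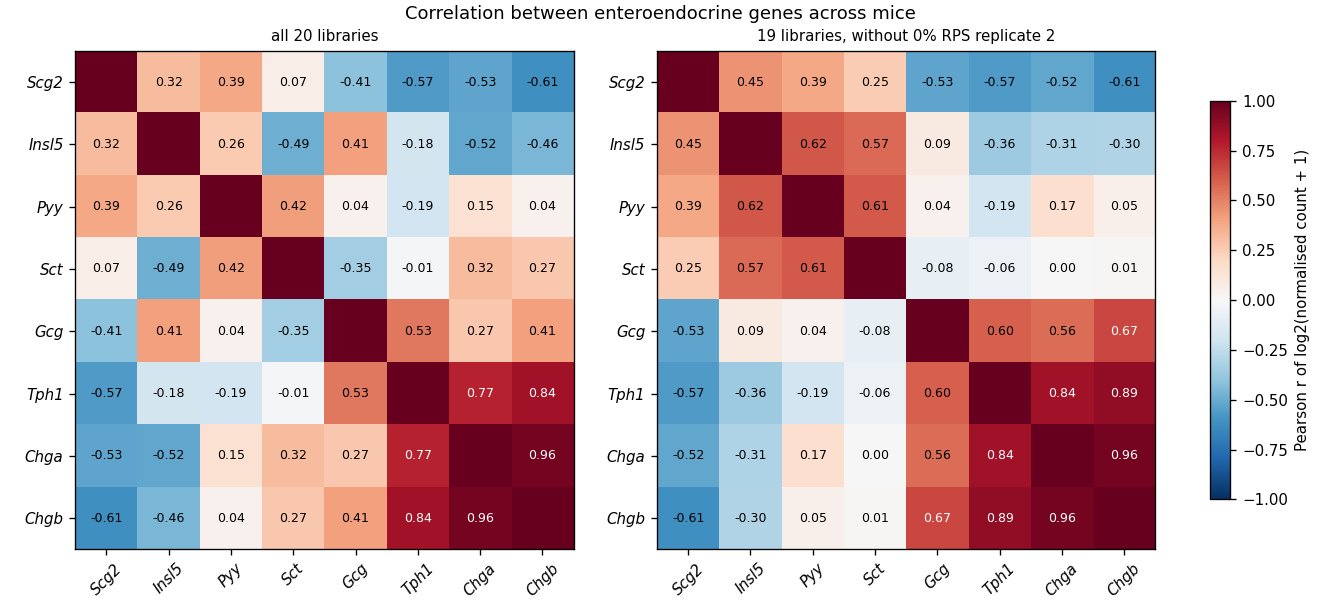
Pearson r between the 8 genes on log2(normalised count + 1), over all 20 libraries (left) and over 19 libraries without replicate 2 of the 0% RPS diet (right). Chga, Chgb, and Tph1 form a block with r of 0.77 to 0.96 on the left, whereas the Insl5 values change most between the panels, for example with Sct from -0.49 to 0.57.

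The promoters of these genes can be set beside that pattern. The 250 bases before the RefSeq start were searched on both strands for TGACGTCA, the cAMP response element on which granin promoters are known to depend, and for its core TGACG, which the full element contains. The full element was found in 2 of the 8 genes, Chgb and Scg2, and in 1.55% of 32851 RefSeq promoters of the same length. The core was found in 4 of the 8, Chga, Chgb, Scg2, and Tph1, and in 17.8% of those promoters. The 30 bases around the plus-strand site are shown because they cover the 3 genes that varied together and the third granin, with the full element or, where it is not complete, the core in capitals. The sequences are from RefSeq, with coordinates on GRCm39, and positions count back from the RefSeq start. Counted in the same way, the canonical GENCODE transcript starts at -364 for Chgb, -94 for Scg2, -40 for Chga, and -3 for Tph1. Both full elements therefore lie downstream of the GENCODE start.
Chga, chr12:102521144-102521173, plus strand, -56 to -27: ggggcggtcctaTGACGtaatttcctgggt
Chgb, chr2:132623478-132623507, plus strand, -84 to -55: ggggctgctccgTGACGTCAgggctgagcg
Scg2, chr1:79417794-79417823, minus strand, -80 to -51: aggctgagccggTGACGTCAgcgtggaatg
Tph1, chr7:46316831-46316860, minus strand, -59 to -30: cattggccgttcTGACGatgcgcttctcct
The 8 capital letters of Scg2 and Chgb are the same because that string was the one searched for. These are matches of letters, and binding was not measured. TATAAA was found in Gcg, Insl5, and Sct (3 of 8; 12.4% of all promoters), and the E-box CANNTG in 7 of the 8, with Tph1 as the exception (66.2% of all promoters).

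Each gene was also set against 4 scores of cell type and position, the mean log2(normalised count + 1) of the epithelial, enteric neuron, smooth muscle, and posterior Hox lists (32 relations). The posterior Hox list was used without Osr2. Scg2 followed the enteric neuron score, with r = 0.96 and rho = 0.89 (permutation p = 1e-05 for each, the smallest possible, adjusted 0.00032 for each), r = 0.94 with 2 libraries left out, and r = 0.95 within diets. It also passed with the smooth muscle score (r = 0.65, rho = 0.71, permutation p = 0.00167 and 0.00061, adjusted 0.0182 and 0.00651; r = 0.64 with 2 libraries left out) and with the posterior Hox score (r = 0.56, rho = 0.67, permutation p = 0.00731 and 0.00149, adjusted 0.039 and 0.0119; r = 0.50 with 2 libraries left out). Pyy passed on rho alone with the posterior Hox score (r = 0.32, rho = 0.62, permutation p = 0.172 and 0.00432, adjusted 0.285 and 0.0276; r = 0.51 with 2 libraries left out and 0.01 within diets). Against the enteric neuron score, Chgb and Tph1 went the other way from Scg2 and passed on r alone. Chgb had r = -0.59 (rho = -0.51, permutation p = 0.00606 and 0.0223, adjusted 0.039 and 0.117) and Tph1 r = -0.58 (rho = -0.49, permutation p = 0.00632 and 0.0275, adjusted 0.039 and 0.117). These r values fell to -0.35 and -0.28 with 2 libraries left out. Sct followed the epithelial score (r = 0.63, rho = 0.73, permutation p = 0.00171 and 0.00039, adjusted 0.0182 and 0.00624; r = 0.66 with 2 libraries left out). The relation of Insl5 to the posterior Hox score (r = 0.69, rho = 0.33, permutation p = 0.0137 and 0.153, adjusted 0.055 and 0.306) rested on the libraries left out, since r was 0.12 without the 2 libraries farthest from the median of Insl5 and 0.15 without replicate 2 of the 0% RPS diet alone.

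**Figure D4:**
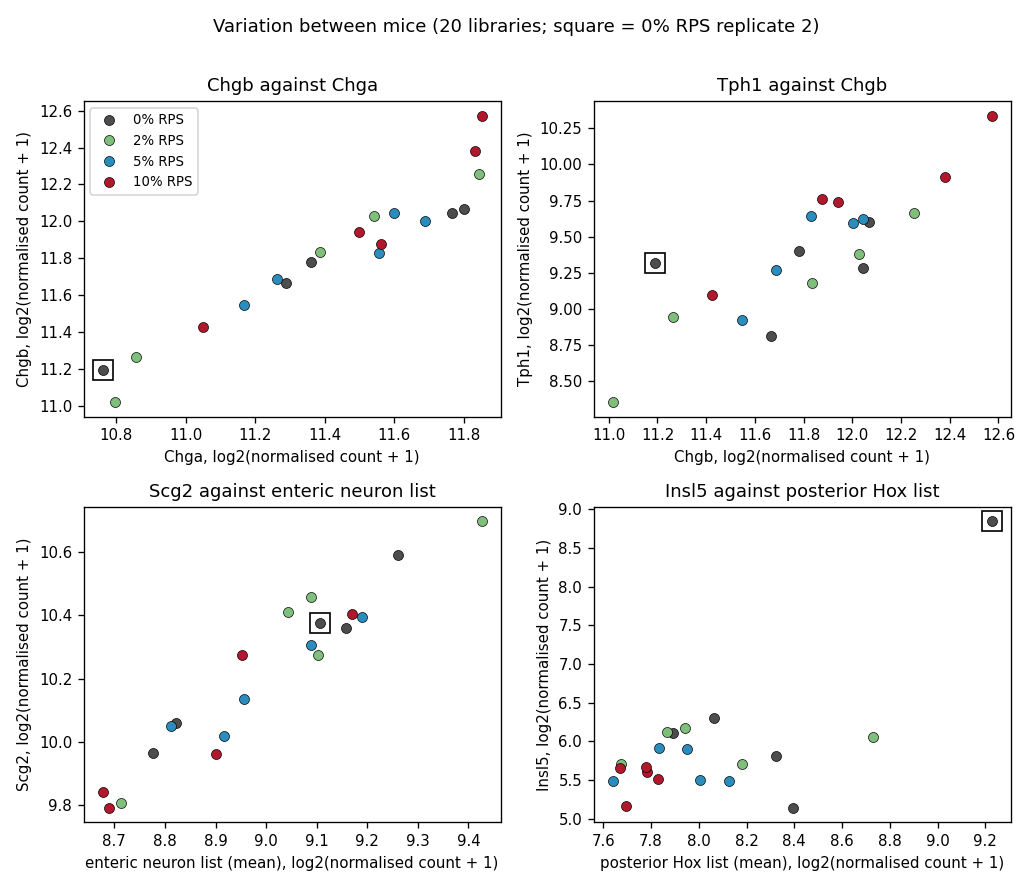
The 4 relations across 20 libraries, colored by diet, on log2(normalised count + 1) axes: Chgb against Chga, Tph1 against Chgb, Scg2 against the enteric neuron score, and Insl5 against the posterior Hox score. The square marks replicate 2 of the 0% RPS diet, which is the lowest library for Chga and stands alone at the upper right for Insl5 (r = 0.69 with it and 0.15 without it).

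Among the 12347 genes that averaged 10 or more normalised counts, the 3 with the highest r over the 20 libraries were taken for each gene. For Chga they were Chgb, Iapp (r = 0.87), and Gsdme (r = 0.87), and for Chgb they were Chga, Tph1, and Gsdme (r = 0.83). Iapp, the islet amyloid polypeptide, was itself a low transcript with a mean of 39.01 normalised counts. Tph1 was followed by Chgb, Disp1 (r = 0.77), and Slc39a8 (r = 0.77). The genes most like Scg2 were the neuronal and granule genes Prkar1b (r = 0.96), Uchl1 (r = 0.96), and Ptprn (r = 0.95). For Sct they were Fa2h (r = 0.91), Tmem41a (r = 0.89), and Degs2 (r = 0.87), of which Fa2h and Degs2 are enzymes of hydroxylated sphingolipids. Pyy was most like Trip6 (r = 0.77), Fabp3 (r = 0.75), and Oxct1 (r = 0.74), the last being the ketone body-using enzyme, and Gcg was most like Ube2q2 (r = 0.79), Trim30a (r = 0.76), and Fam91a1 (r = 0.74). For Insl5 the genes were Hoxa11os, Glul, and Pdzd7 (r = 0.85 to 0.86), and r fell to 0.31, -0.06, and 0.11 without replicate 2 of the 0% RPS diet. These r values are descriptions, given without a p.

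The genes around the hormones were described by 6 lists that hold 83 genes, of which 40 were measured. Of the other hormones (4 of 8 measured, Sst, Nts, Tac1, and Iapp) 0 were changed at any RPS level, and Sst, the most abundant per length at 40.4 ± 8.97 RPKM (SD, n = 20), differed by 0.09 on the log2 scale at 10% RPS (adjusted p = 0.84). Of the 12 genes of hormone processing and granule cargo, all measured, 0 were changed at any level. At 10% RPS 9 of them had a negative value, with a median log2 fold change of -0.16 (0.00 over all genes), and 3 had an unadjusted p under 0.05, with negative values, as 2365 of all 12561 genes did in either direction. edgeR gave 2 such genes, and the fit without replicate 2 of the 0% RPS diet gave 2 with negative and 1 with a positive value. In the first fit these were Pcsk2 (-0.35), Cpe (-0.33), and Scgn (-0.40), with adjusted p values of 0.257, 0.213, and 0.153. Cpe, the carboxypeptidase that trims prohormones, was the most abundant per length at 87.8 ± 18.1 RPKM. Pcsk1, the convertase of L cells, stood at 0.14 (adjusted p = 0.594). The enteric neuron list also had negative values at 10% RPS (15 of 18 genes, median -0.19). Ptprn, which is on the processing list, was among the genes most like Scg2 (r = 0.95). Which cells carried the negative values of the processing list was not tested. Of the endocrine transcription factors 4 of 16 were measured (Atoh1, Foxa1, Foxa2, and Etv1) and 0 were changed. Atoh1, the factor of the secretory lineage and the most abundant at 38.4 ± 8.3 RPKM, stood at 0.44 (adjusted p = 0.125). Of the serotonin genes 4 of 9 were measured and 0 were changed. Among them Ddc, the second step of serotonin synthesis, stood at 0.00 (adjusted p = 0.995), Slc18a2, a vesicular transporter, at 0.09 (adjusted p = 0.651), and Maoa, the most abundant at 181.6 ± 28.8 RPKM, at 0.11 (adjusted p = 0.715). Slc18a1, another vesicular transporter on the list, was not among the 4 measured. Gch1, which makes the cofactor of tryptophan hydroxylase, was at 0.49 (adjusted p = 0.0827), and it was changed (0.59, adjusted p = 0.0219) when replicate 2 of the 0% RPS diet was left out. edgeR also called 0 genes of these 4 lists at 10% RPS.

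**Figure D5:**
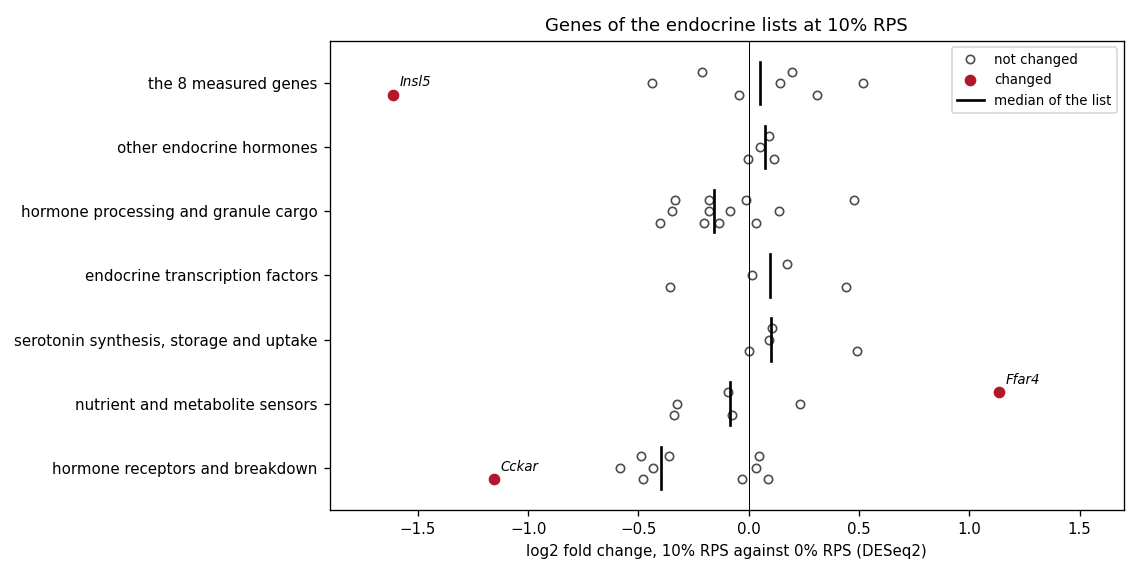
Log2 fold change at 10% RPS against 0% RPS (horizontal axis) for the measured genes of 7 lists, with filled points for changed genes and a vertical line at the median of each list. Only Insl5 (-1.61), Ffar4 (1.13), and Cckar (-1.16) are filled, and Insl5 is not changed without replicate 2 of the 0% RPS diet.

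The sensors and receptors held the changed genes outside the hormones themselves. Of 6 measured sensors of nutrients and metabolites (14 listed), 1 was changed at 5% and at 10% RPS. This was Ffar4, the receptor for long-chain fatty acids that is found on endocrine cells and on other cell types. Its normalised counts were 759.1, 1034, 631.8, 409.4, and 313.1 at 0% RPS, and 1493, 1572, 1155, 857.5, and 1829 at 10% RPS. Of the 10% RPS libraries, 4 lay above all 5 of the 0% RPS libraries. On the log2 scale Ffar4 was higher by 0.95 ± 0.25 at 5% RPS (adjusted p = 0.0187, edgeR adjusted p = 0.124) and 1.13 ± 0.25 at 10% RPS (adjusted p = 0.00113, edgeR adjusted p = 0.0385), and leaving out replicate 2 of the 0% RPS diet gave 1.21 and 1.39. It did not pass with the epithelial score as a covariate. With that covariate 4 of all genes were called at 5% RPS and 25 at 10% RPS, beside 55 and 113 without it. Rbp4 overlaps Ffar4 on the other strand, so reads of that overlap cannot be told apart. The receptors for short-chain fatty acids, the products of starch fermentation, did not pass: Ffar2, the most abundant of this list at 14.2 ± 2.27 RPKM, stood at 0.23 (adjusted p = 0.39) and Ffar3 at -0.34 (adjusted p = 0.38). Of 10 measured receptors and hormone-degrading enzymes (24 listed), 1 was changed at 5% and 10% RPS, Cckar, the cholecystokinin receptor, with means of 307 normalised counts at 0% and 138 at 10% RPS and a log2 fold change of -1.16 ± 0.25 (adjusted p = 0.000895, edgeR adjusted p = 0.0314). Replicate 2 was the highest 0% RPS library at 525.9 (214.5 to 310.6 in the others), and without it the difference was -0.87 (adjusted p = 0.00337). Cckar was not called with the epithelial or the position covariate at either level, nor by edgeR at 5% RPS (adjusted p = 0.115). Dpp4, which cleaves glucagon-like peptides and was the most abundant of the list at 7.2 ± 1.11 RPKM, stood at 0.03 (adjusted p = 0.929). In the trend, Ffar4 was higher and Cckar, Htr3a (a serotonin receptor subunit, adjusted p = 0.0115), and Glp2r (the receptor for glucagon-like peptide-2, adjusted p = 0.0456) were lower with RPS. Without replicate 2 of the 0% RPS diet Glp2r no longer passed (adjusted p = 0.0656), and at 10% RPS the somatostatin receptor Sstr1 was changed (-0.79, adjusted p = 0.035).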

How the data were processed

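RNA from the proximal colon was sequenced as stranded, poly(A)-selected libraries with single 50-base reads. The authors trimmed reads, mapped them to GRCm39 in CLC Genomics Workbench, and deposited raw counts per gene, unnormalised, for 12701 genes and 20 libraries. The annotation release, the strand setting, the treatment of reads with several matches, and why the table holds these genes are not given in the sources used here. Library totals ranged from 20581013 to 35083751.

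Here the counts were tested with DESeq2 1.42.0 in R 4.3.3, the tool of the study, with diet as the only term and all 20 libraries in 1 fit. The threshold was 0.05 on the p adjusted after Benjamini and Hochberg, together with 1.5-fold. edgeR 4.0.16 (quasi-likelihood), TMM factors, filters, a surrogate variable (sva 3.50.0), cell type and position scores as covariates, and leaving out each library were alternatives, and the scripts were tested on simulated data. Normalised counts use DESeq2 size factors. Correlations used log2(normalised count + 1) and 100000 permutations, two-sided. Positions and lengths are from GENCODE M39, which held 12682 of the identifiers. Promoters of all 8 genes are from the RefSeq table on GRCm38, placed on GRCm39 by exact sequence match. The members and all gene lists were chosen with earlier results of these data known. Every member is named. Other endocrine genes are named if changed in any comparison with 0% RPS or the most abundant of their list per length, as are the 3 genes most like each member, of those with 10 or more normalised counts on average. Further genes were named after their values were seen.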

Additional observations from a re-analysis of the deposited data

Results flagged for a closer look

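Of 40 sets of 5 libraries (10 genes, the 8 enteroendocrine genes with Ffar4 and Cckar, in 4 diets), 3 held a library far from the others by Dixon's test, where chance gives about 1 in 20. Insl5 in replicate 2 of the 0% RPS diet stood at 458.2 normalised counts, with the other libraries of that diet at 34.25 to 77.89. Pyy in replicate 5 of the 5% RPS diet stood at 1405, with the others at 731.1 to 913.1. Sct was high in the same library, at 1000, with the others at 686.5 to 756.1.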

How the results depend on the processing

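The 8 enteroendocrine genes gave 1024 values under the alternatives, 640 of them with 1 library left out, of which 603 of those 640 and 346 of the other 384 kept both direction and call. The fit with edgeR without replicate 2 of the 0% RPS diet, and all alternatives for the other endocrine lists, were chosen after seeing the data. The 1 call among the 8 genes, Insl5 at 10% RPS, became 0 calls with edgeR, with edgeR without replicate 2 of the 0% RPS diet, with the smooth muscle or the position covariate, and without the 3 libraries numbered apart. Leaving out 1 library at a time gave 0 to 1 calls at 5% RPS (Insl5 without replicate 1 or 3 of the 0% RPS diet) and 0 to 1 at 10% RPS (0 without replicate 2 of the 0% RPS diet or replicate 3, 4, or 5 of the 10% RPS diet). With the epithelial covariate the 1 call was Pyy instead. In the trend the 0 calls became 1 with the surrogate variable (Insl5) and 1 with the epithelial covariate (Pyy), and 0 to 2 with 1 library left out: Insl5 and Pyy without replicate 5 of the 2% RPS diet, Pyy without replicate 2 of the 0%, 3 of the 2%, or 5 of the 5% RPS diet, Insl5 without replicate 3 of the 0%, and Tph1 without replicate 1 of the 10% RPS diet.

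Of the other endocrine lists, the 2 calls at 5% RPS became 0 with edgeR, with a fold of 2, and with the epithelial covariate, 1 with the position covariate and with edgeR without replicate 2 of the 0% RPS diet (Ffar4 in both), and 0 to 2 with 1 library left out (0 without replicate 4 of the 0% RPS diet, 1 without replicate 5 of the 0% or replicate 2 or 3 of the 5% RPS diet). The 2 calls at 10% RPS were Ffar4 and Vgf, not Cckar, with the position covariate, and became 4 with the surrogate variable, 0 with the epithelial covariate, and 2 to 4 with 1 library left out (4 without replicate 2 of the 0% RPS diet). The 4 slopes became 2 with the position covariate, 2 without the 3 libraries numbered apart, 1 with the 2, 5, and 10% RPS diets alone, and 2 with edgeR without replicate 2 of the 0% RPS diet. With 1 library left out there were 2 to 6 slopes (2 without replicate 5 and 6 without replicate 2 of the 10% RPS diet). No count was given where DESeq2 set no adjusted p for a called gene: at 10% RPS for the 8 genes in the fit of the compared diets alone and without replicate 4 of the 0% RPS diet, and at 5% RPS for the other lists without replicate 1 or 5 of the 2% RPS diet. The cause of these changes was not tested.

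Values that changed sign, none of which passed the test, were as follows (log2 fold change, or log2 units per percent for a slope). With the position covariate they were -0.227 for Chga at 5%, -0.199 for Chga at 10%, -0.00803 for the slope of Chga, -0.229 for Chgb at 5%, -0.0718 for Chgb at 10%, -0.032 for Sct at 10%, -0.0157 for the slope of Sct, -0.0324 for Tph1 at 5%, 0.0716 for Scg2 at 5%, and 0.0204 for Scg2 at 10%. With the epithelial covariate they were -0.0381 for Chga at 5%, -0.085 for Chgb at 5%, -0.0358 for Sct at 10%, and -0.00924 for the slope of Sct. With the smooth muscle covariate they were -0.101 for Chga at 5%, -0.0803 for Chgb at 5%, and 0.0224 for Scg2 at 5%. With the surrogate variable they were -0.059 for Chga at 5% and -0.0312 for Chgb at 5%. Without the 3 libraries numbered apart they were -0.0203 for the slope of Gcg, -0.0573 for Chga at 10%, -0.000673 for the slope of Chga, and -0.0204 for Chgb at 10%. With edgeR without replicate 2 of the 0% RPS diet they were 0.0783 for Gcg at 10%, -0.103 for Chga at 5%, -0.0647 for Chgb at 5%, 0.0713 for Insl5 at 2%, and -0.00325 for the slope of Sct. In the 3 starch diets alone it was -0.0196 for the slope of Sct. With 1 library left out at a time the ranges that crossed 0 were -0.198 to 0.101 for Gcg at 10%, -0.0127 to 0.0163 for the slope of Gcg, -0.223 to 0.00777 for Pyy at 2%, -0.262 to 0.00711 for Chga at 2%, -0.103 to 0.132 for Chga at 5%, -0.19 to 0.106 for Chgb at 2%, -0.0655 to 0.132 for Chgb at 5%, -1.42 to 0.0755 for Insl5 at 2%, -0.00293 to 0.0162 for the slope of Sct, -0.293 to 0.0117 for Tph1 at 2%, and -0.0281 to 0.181 for Scg2 at 2%.

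No paired analysis was possible because the labels give every library its own number, with none shared between diets. The replicate numbers used here do not pair libraries across diets. Depth limits Insl5 most, with 34.25 to 77.89 normalised counts in 19 of 20 libraries.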
